A study of Zea mays with 47 samples.

Results

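The step from 32°C to 38°C is the severe end of a heat gradient to which maize seedlings were exposed. It is described here from 31 of the 47 RNA sequencing libraries of the series, 16 from plants grown at 38°C during the day and 15 from plants grown at 32°C, chosen by the heat level in the library labels. The plants belonged to 8 inbred lines of European breeding material, 4 Flint (L043, L012, L023, L017) and 4 Dent (P040, S058, S067, S070). Each library was made from pooled leaf pieces of 5 plants of 1 line, cut from the latest fully developed leaf, and each line had 2 libraries per heat level except L017 at 32°C, which had 1. All plants started under the same cooler conditions and were moved to their heat level as young seedlings, and no group carried a transgene or received another treatment. Plants of the 2 heat levels were raised in separate chamber runs, so the effects of heat and of the run cannot be told apart.

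In a leaf, heat unfolds proteins, and cells answer by making heat shock proteins, chaperones that hold, refold or pull apart damaged proteins under the control of heat stress transcription factors. The thylakoid membranes with the photosystems and their chlorophyll-binding antenna proteins are among the most heat-sensitive structures of the cell. Maize is a C4 plant, in which mesophyll cells fix carbon first and bundle sheath cells run the Calvin cycle, the part of photosynthesis that makes sugar.

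The deposited values were raw counts for 17905 genes, and the 31 libraries held 322143983 counts. Totals ranged from 8059394 to 17529195 counts at 32°C (median 11026623, n = 15) and from 3687700 to 13912372 at 38°C (median 8656243, n = 16), so the severe heat level was sequenced less deeply. Levels are given below as CPM, the counts of a gene scaled to a common library size with TMM factors. The summed level of 5 mesophyll markers was 1830 to 7050 CPM (median 4456) at 32°C and 2149 to 6264 (median 3839) at 38°C, and that of 6 bundle sheath markers was 401 to 3227 (median 1883) and 569 to 1872 (median 1396). None of these markers was at 0 in any library. In bulk leaf pieces, fewer cells of a type and less RNA per cell cannot be told apart.

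A few libraries stood apart from their line label. The first libraries of S070 and P040 at 32°C resembled each other's line. The S070 library correlated at 0.575 with the P040 pattern and at -0.0179 with its own, the P040 library at 0.479 with the S070 pattern and at -0.0878 with its own, over 11724 genes as deviations from the mean of the heat level. The second P040 library at 32°C resembled its own line and L017 about equally, and only weakly (0.192 and 0.208). Every other library at 32°C correlated at 0.272 or more with its closest line. The following values are again those of the second P040 library. It held the highest value among the 15 libraries at 32°C for 7 of 14 heat shock proteins and the lowest for 5 of 7 light-harvesting proteins. The biological coefficient of variation (the replicate spread relative to the mean) was 0.276 over all combinations of line and heat level. It was 0.517 in P040 at 32°C and 0.394 in S070 at 32°C, the largest of all pairs. Many results are therefore also given without these libraries. Counts of some other gene lists also moved without them, so a count given alone is not always stable.

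The comparison asked which genes changed between both upper heat levels across the lines. Of 17845 genes tested by edgeR's quasi-likelihood test with line as a covariate, 2758 rose (15.5%) and 2864 fell (16%) at a Benjamini-Hochberg adjusted p under 0.05. Rose and fell are used below for genes past this threshold. With a log2 change beyond 1, that is a doubling or halving, 790 genes rose (4.43%) and 628 fell (3.52%), 1418 in all (7.95%). Beyond a log2 change of 2, 158 genes rose (0.885%) and 67 fell (0.375%). The median log2 change of all genes tested was 0.02. Without the first S070 and P040 libraries at 32°C the counts beyond 1 were 863 and 586, and without the second P040 library 890 and 671. Genes that rose beyond 1 had a median level of 0.29 mean log2 CPM and genes that fell 2.05, so the rises lay at lower levels than the falls.

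**Figure D1:**
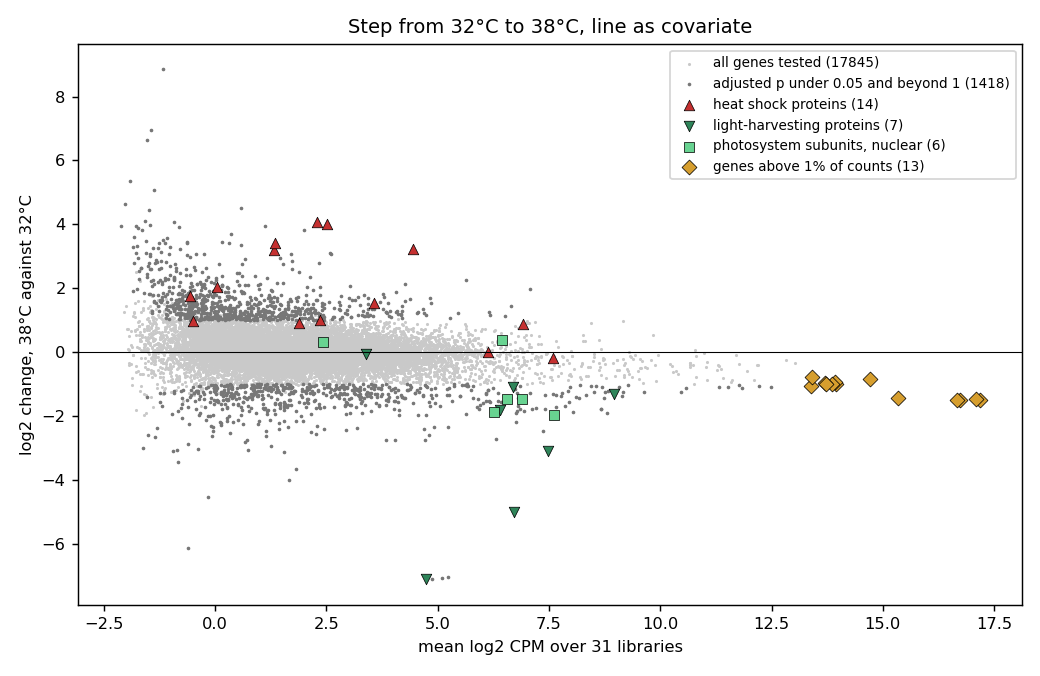
Log2 change from 32°C to 38°C (vertical) against the mean log2 CPM over 31 libraries (horizontal), 1 point per gene of 17845, with heat shock proteins, light-harvesting proteins, nuclear photosystem subunits and the genes above 1% of counts marked. The marked heat shock proteins reach a log2 change of 4.08 and the light-harvesting proteins go down to -7.11, while the 13 genes above 1% of counts lie between -0.77 and -1.51.

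The deepest falls included genes of the light-harvesting antenna, which binds chlorophyll and passes light energy to the photosystems. Of 7 listed light-harvesting proteins 6 fell, none rose, and their median log2 change was -1.81. The gene cab48 (GRMZM2G120619) was at 32.7 to 967 CPM (median 343) at 32°C and at 0.265 to 26.6 CPM (median 2.96) at 38°C. The heat levels did not overlap in any pair of libraries, and the log2 change was -7.11 ± 0.55 (SE, adjusted p = 6.47e-10, edgeR). The gene cab-m1 (GRMZM2G351977, chlorophyll a-b binding protein 2, B73 RefGen_v3 chromosome 8, 141176051 to 141177936) was at 105 to 2039 CPM (median 716) against 3.45 to 83.5 (median 25.2). It changed by -4.99 ± 0.37 (SE, adjusted p = 4.77e-10, edgeR), again with no overlap. The antenna gene lhcb3 (GRMZM2G155216) was at 113 to 1280 CPM (median 529) against 27.4 to 160 (median 66.4), with only the second P040 library at 32°C inside the 38°C range, and changed by -3.09 ± 0.27 (SE, adjusted p = 6.06e-09, edgeR).

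The other antenna genes moved less. The log2 change was -1.81 for lhcb6 (GRMZM2G092427, the minor antenna protein CP24), -1.30 for lhcb7 (GRMZM2G402936) and -1.08 for lhcb5 (GRMZM2G149428, the minor antenna protein CP26). In each of these genes 7 of 8 lines were lower at 38°C, P040 being higher. The gene lhcb4 (GRMZM2G103101) had 2.98 to 59.7 CPM (median 7.49) at 32°C and 4.14 to 36.3 (median 12.3) at 38°C, and did not pass the test (log2 change -0.06, adjusted p = 0.92, edgeR). A further 3 genes fell about as far as cab48, and the tables used here give no name for them. These were AC208915.3_FG010 (482 against 4.38 CPM in the median), GRMZM2G104549 (558 against 5.19) and GRMZM2G429955 (568 against 5.36), with log2 changes from -7.03 to -7.10 and no overlap between heat levels. Without the first S070 and P040 libraries at 32°C, the log2 changes of these 3 genes, cab48 and cab-m1 ran from -7.26 to -5.14. Antenna genes form a family of similar copies, and the sources do not state how reads that fit several copies were counted, so the split between members is uncertain.

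**Figure D2:**
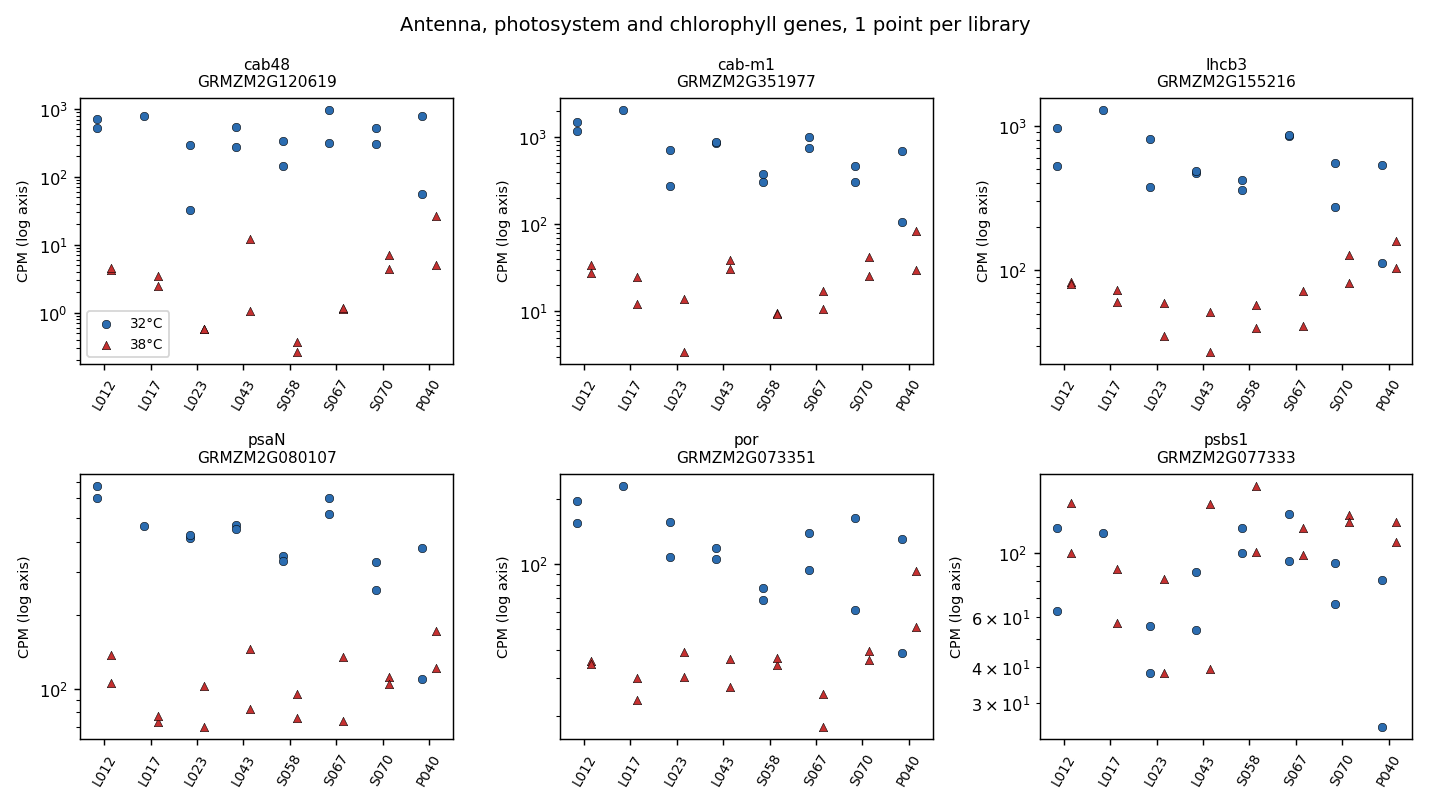
CPM on a log axis for 6 genes of light capture, 1 point per library, with lines along the horizontal axis and 32°C (circles) beside 38°C (triangles). In cab48 and cab-m1 every 38°C library lies below every 32°C library, the second P040 library at 32°C is the lowest 32°C value in the panels of cab-m1, lhcb3, psaN, por and psbs1, and psbs1 shows no separation.

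Photosystem subunits encoded in the nucleus also fell in part. Of 6 tested, 4 fell and none rose (median log2 change -1.47). The photosystem I subunit genes psaN (GRMZM2G080107) and psaD (listed as psad1, GRMZM2G024150) fell in all 8 lines, psaN from 109 to 677 CPM (median 427) to 69.5 to 173 (median 103), a log2 change of -1.97 ± 0.18 (SE, adjusted p = 9.34e-09, edgeR). The photosystem I gene psaH (GRMZM2G451224) changed by -1.46, and the gene of the oxygen-evolving complex protein PsbQ (GRMZM2G021617) by -1.48. The list was built from symbols, and the tables used here give no product for its member psat1, which may not be a photosystem gene. Of the other 5, 4 fell. The members that did not pass were psat1 (GRMZM2G300801, log2 change 0.33, adjusted p = 0.138 in edgeR and 0.0222 without the second P040 library at 32°C) and psbs1 (GRMZM2G077333). PsbS is needed to dissipate excess light as heat, and psbs1 was at 24.6 to 137 CPM (median 86.0) at 32°C and 38.1 to 173 (median 105) at 38°C, without passing the test (log2 change 0.37, adjusted p = 0.154, edgeR). The second P040 library at 32°C held the lowest 32°C value in 5 of these 6 genes, and its part in the result was not tested beyond leaving it out.

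Both genes of the chlorophyll branch in the list of chlorophyll synthesis fell. Protochlorophyllide reductase, the light-dependent step of the pathway (por, GRMZM2G073351), was at 39.1 to 230 CPM (median 119) at 32°C and at 17.7 to 93.0 (median 35.2) at 38°C, with a log2 change of -1.78 ± 0.22 (SE, adjusted p = 8.72e-07, edgeR). The mean was lower in all 8 lines, by 0.05 on the log2 scale in P040 and by 1.03 or more in the others. The magnesium chelatase gene oy1 (GRMZM2G419806) changed by -1.15, whereas elm1 (GRMZM5G861678), which serves the phytochrome chromophore made from the same precursors, rose by 0.59.

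Genes of carbon fixation did not share the depth of these falls. Of 6 Calvin cycle genes 3 fell (50%, against 16% of all genes) and 1 rose (16.7%, against 15.5%). With all libraries none fell beyond a log2 change of 1, and the median was -0.58. The list shares 4 genes with the bundle sheath markers, of which 3 of 6 also fell and 1 rose. Without the second P040 library at 32°C 4 Calvin cycle genes fell, with a median of -0.70. The gene ssu1 (GRMZM2G098520) then changed by -1.09 (adjusted p = 0.00457, edgeR). Rubisco activase, which keeps the carbon-fixing enzyme active, moved in opposite directions between gene copies. The copy rca1 (GRMZM2G162200) was at 86.0 to 660 CPM (median 370) at 32°C and 85.9 to 350 (median 233) at 38°C (log2 change -0.69, adjusted p = 0.0123, edgeR). The copy listed as rca3 (GRMZM2G162282) was at 1.78 to 50.5 CPM (median 23.2) and 7.36 to 126 (median 53.7), a log2 change of 1.15 (adjusted p = 0.0113, edgeR) with a higher mean at 38°C in 8 of 8 lines. None of the 5 mesophyll markers of the C4 pathway passed the test (median log2 change -0.01). They include pep1 (GRMZM2G083841), the first carbon-fixing enzyme, at -0.45 (adjusted p = 0.0958, edgeR), which passed without the second P040 library at 32°C (0.0179).

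Transcripts of a few very abundant loci lost a part of the libraries. The 13 genes with more than 1% of all counts each, together 62.6 to 80.4% of a library at 32°C (median 74.9), made up 50.6 to 70.2% at 38°C (median 60). The difference of line means was -14.6 percentage points ± 5.68 (SD, n = 8 lines), lower in 8 of 8 lines (exact two-sided sign-flip test over lines, p = 0.00781, the smallest this test can give). Of these loci, GRMZM5G844143 (chromosome 9, 37560868 to 37561807), described by the study as the photosystem Q(B) protein, a core protein of photosystem II that plastids encode, held 15.4% of all counts. Its level was 86121 to 356160 CPM (median 289960) at 32°C and 44455 to 162420 (median 94552) at 38°C, a log2 change of -1.50 ± 0.18 (SE, adjusted p = 6.56e-07, edgeR). These levels are scaled by TMM factors and are not shares of a library. As a share of counts, this locus changed by -4.35 percentage points (mean over lines). How much the scaling adds to the log2 change was not tested. The models GRMZM2G427369 (chromosome 5, 210013736 to 210020221) and GRMZM2G427404 (chromosome 5, 210016503 to 210019608, chloroplast ribosomal protein L2) overlap on the genome, so their reads cannot be assigned to one alone. Reads of plastid transcripts and of nuclear copies of plastid genes cannot be told apart in these counts. With all 13 genes left out before scaling, 812 genes rose and 615 fell beyond 1.

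Heat shock proteins rose as a group, mostly from low levels. Of 14 listed members 11 rose, 8 of them beyond 1, none fell, and the median log2 change was 1.66. Several members, among them hsp101, hsp82, hsp26 and hsp22, were selected by the study as heat responsive on these libraries. The count is therefore not independent evidence of direction. The disaggregase gene hsp101 (GRMZM2G360681, chromosome 6, 160816570 to 160820239), whose protein pulls apart aggregates, was at 0.120 to 5.79 CPM (median 0.975) at 32°C and at 4.06 to 56.6 (median 20.9) at 38°C. The log2 change was 4.08 ± 0.38 (SE, adjusted p = 1.45e-08, edgeR), and the mean was higher at 38°C in all 8 lines, by 2.85 to 6.08. The HSP90-class chaperone hsp82 (GRMZM5G833699, chromosome 10, 93697766 to 93700740) was at 0 to 9.20 CPM (median 1.03) against 7.22 to 82.6 (median 23.9), and changed by 4.0 ± 0.49 (SE, adjusted p = 8.00e-07, edgeR). In both genes the only 32°C value within the 38°C range came from the second P040 library.

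The HSP70 gene GRMZM2G310431 (chromosome 8, 168506539 to 168509902) reached the highest median level among the heat shock proteins that rose beyond 2. It was at 0.878 to 38.7 CPM (median 6.64) at 32°C and 31.3 to 124 (median 70.5) at 38°C, a log2 change of 3.23 ± 0.28 (SE, adjusted p = 6.06e-09, edgeR). Small heat shock proteins, which hold unfolded proteins without using ATP, rose from levels near the detection limit. The plastid protein gene hsp26 (GRMZM2G149647) went from 0 to 3.64 CPM (median 0.516) to 2.27 to 117 (median 5.96), with the top value from an L012 library, and changed by 3.41 ± 0.51 (SE, adjusted p = 1.29e-05, edgeR) or by 3.95 without the second P040 library at 32°C. The gene hsp22 (GRMZM2G007729) went from 0 to 3.27 CPM (median 0.458) to 1.17 to 24.6 (median 7.80), a log2 change of 3.21.

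Other chaperones of the same classes were already high at 32°C and moved little. The HSP70 gene hsp70-4 (GRMZM2G340251) was at 138 to 342 CPM (median 195) and 147 to 288 (median 180), and HSP90-2 (GRMZM2G012631) at 53.1 to 92.5 (median 70.7) and 48.1 to 89.5 (median 75.5), with log2 changes of -0.18 (adjusted p = 0.316, edgeR) and -0.00 (adjusted p = 0.981, edgeR). The third that did not pass was the small heat shock protein hsp18a (GRMZM2G404249, log2 change 0.98, adjusted p = 0.0932, edgeR), which passed without the second P040 library at 32°C (0.0280). HSP90-1 (GRMZM2G024668), at 26.1 to 258 CPM (median 79.6) at 32°C and 85.2 to 315 (median 155) at 38°C, rose by 0.89. Without the second P040 library at 32°C, 12 of 14 heat shock proteins rose, and 4 of 14 had every 38°C library above every 32°C library, against 0 of 14 with it. Over all genes tested these shares were 0.134% and 0.0504%.

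**Figure D3:**
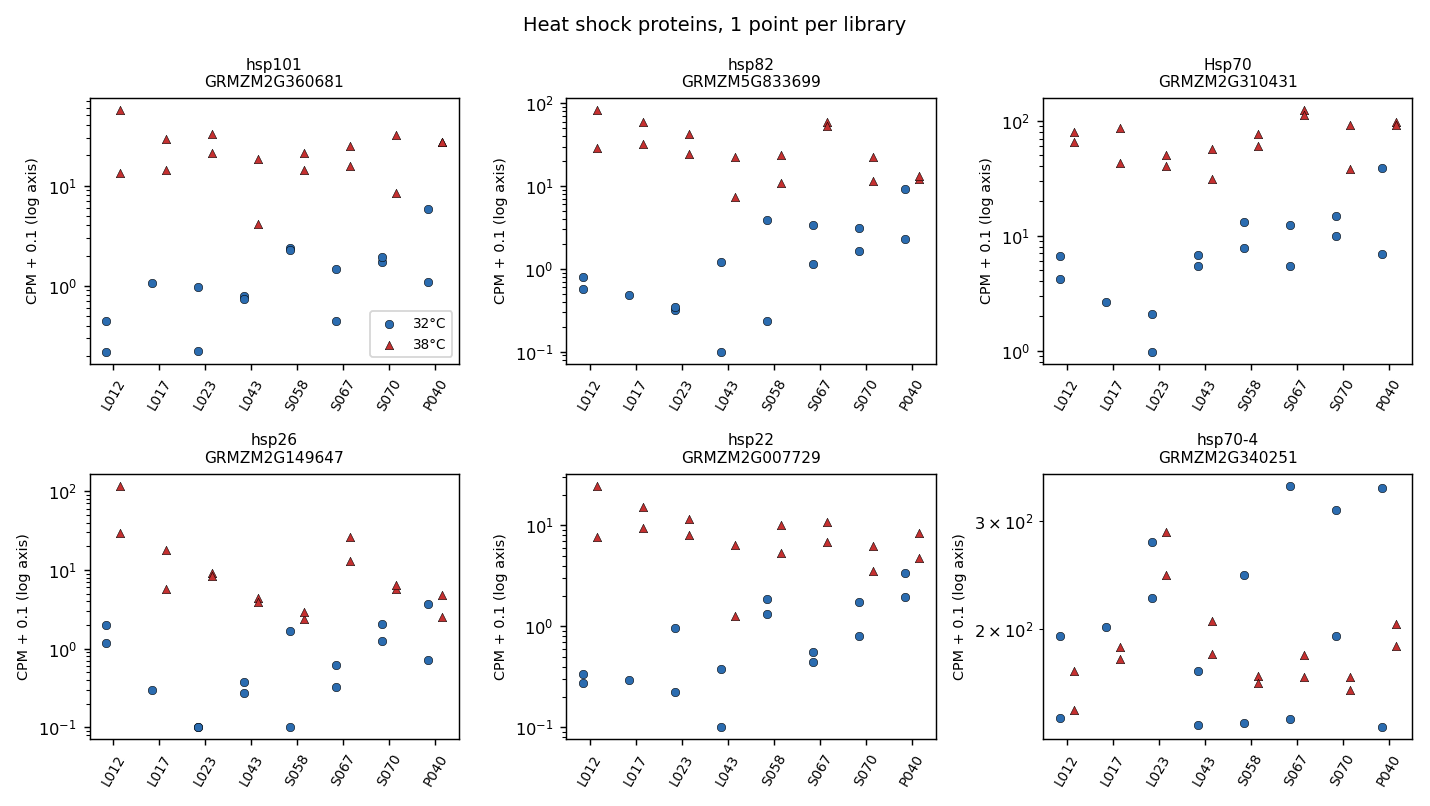
CPM plus 0.1 on a log axis for 6 heat shock protein genes, 1 point per library, with lines along the horizontal axis and 32°C (circles) beside 38°C (triangles). In hsp101, hsp82, Hsp70 and hsp22 the highest 32°C value is a P040 library, and hsp70-4, whose median was 195 CPM at 32°C and 180 at 38°C, shows no separation.

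Genes that the study placed in the MapMan bin of heat stress gave the same direction with exceptions. MapMan bins are functional classes, and the 26 genes tested were selected by the study as heat responsive on these libraries, so their direction is not independent evidence. Of them 20 rose and 4 fell, with a median log2 change of 1.83. Without the second P040 library at 32°C 21 rose and 3 fell. GRMZM2G080724 (chromosome 1, 184014021 to 184015262) was at 0 to 0.809 CPM (median 0.218) at 32°C and 1.65 to 17.9 (median 5.16) at 38°C. Its groups did not overlap, and it changed by 4.52 ± 0.28 (SE, adjusted p = 5.21e-11, edgeR). A further member, GRMZM2G070475, also separated fully, from 0.251 to 4.90 CPM (median 2.03) to 5.02 to 18.0 (median 7.55). The largest fall in the bin was GRMZM2G175860 at -2.17.

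Chaperones of mitochondria and the endoplasmic reticulum changed by less than 1 on the log2 scale. All 3 chaperonins of the CPN60 class, the folding cages of mitochondria, rose (log2 changes of 0.78 for GRMZM2G416120, 0.91 for GRMZM2G111477 and 0.995 for GRMZM2G458208), each with a higher mean in 8 of 8 lines, and the last 2 are also counted among the heat shock proteins above. In the endoplasmic reticulum 4 of 12 folding genes rose (33.3%, against 15.5% of all genes). A further 2 fell (16.7%, against 16%), or 1 without the second P040 library at 32°C. The raised ones were the lumenal HSP70 genes bip1 (GRMZM2G114793, 0.87) and bip2 (GRMZM2G415007, 0.60), calreticulin crt2 (GRMZM2G358059, 0.83) and the disulfide isomerase pdi8 (GRMZM2G389173, 0.86). The gene bip1 was at 7.41 to 25.4 CPM (median 16.4) at 32°C and 18.5 to 120 (median 27.7) at 38°C, the top value being from L023. Of 6 heat stress transcription factors 1 rose (16.7%, against 15.5% of all genes) and 2 fell (33.3%, against 16%), with a median of -0.21. Without the first S070 and P040 libraries at 32°C 1 rose and 1 fell. The one that rose was Hsf05 (GRMZM2G133023), at 0 to 3.77 CPM (median 0.351) against 0.689 to 6.62 (median 1.39), a log2 change of 1.75 ± 0.36 (SE, adjusted p = 0.000555, edgeR).

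Defence genes were followed in lists of benzoxazinoid genes and proteinase inhibitors. The gene bx2 (GRMZM2G085661, chromosome 4, 3265213 to 3267368), an early step of benzoxazinoid synthesis, a class of defence compounds of grasses, was at 0 to 8.38 CPM (median 0.915) at 32°C and 0.269 to 65.9 (median 10.2) at 38°C. It changed by 3.06 ± 0.44 (SE, adjusted p = 7.24e-06, edgeR) and was higher in 8 of 8 lines, though the ranges overlapped. It was the only one of 8 benzoxazinoid genes that rose (12.5%, against 15.5% of all genes), and the list median was -0.13. The first gene of the pathway, bx1 (GRMZM2G085381), was at 0.0980 to 83.9 CPM (median 9.19) and 0.161 to 194 (median 23.2) and did not pass (log2 change 0.95, adjusted p = 0.212, edgeR).

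Of 6 proteinase inhibitors, which block digestive enzymes of insects and microbes, 5 rose and none fell, with a median of 2.76. The median line change over the list was 3.70 in L012 and 0.28 to 1.55 in the other lines. The line changes of GRMZM2G096680 ran from 0 in S067 and S070 to 5.29 in L012. Those of GRMZM2G000326 ran from -0.63 in L017 to 4.03 in L012, with 0 in S058, S067 and S070. The Bowman-Birk trypsin inhibitor GRMZM2G075315 was at 0.114 to 3.56 CPM (median 0.975) at 32°C and 0.770 to 46.1 (median 4.85) at 38°C, a log2 change of 2.95 ± 0.39 (SE, adjusted p = 2.81e-06, edgeR). It was higher in 8 of 8 lines, by 0.81 to 4.31, and its line by step interaction did not pass (adjusted p = 0.233, edgeR). The abundant inhibitor MPI (GRMZM2G028393) was at 13.1 to 104 CPM (median 32.3) and 13.2 to 384 (median 61.3) and changed by 1.24. All 6 are in the table of heat responsive genes that the study drew from these libraries, so the count is not independent evidence of direction.

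Of 21 glutathione S-transferases, detoxifying enzymes that attach glutathione to reactive molecules, 9 rose and 1 fell (median 0.52). These shares were 42.9% and 4.76%, against 15.5% and 16% of all genes. Without the first S070 and P040 libraries at 32°C 10 of these transferases rose, and without the second P040 library 8. The gene gst5 (GRMZM2G308687) was at 0.598 to 37.4 CPM (median 3.33) at 32°C and 4.13 to 80.9 (median 22.3) at 38°C, a log2 change of 1.80. The related gene In2-1 (GRMZM2G042639), known from its response to herbicide safeners, was at 0.12 to 14.2 CPM (median 1.08) and 4.66 to 34.9 (median 15.3) and changed by 2.80 ± 0.37 (SE, adjusted p = 2.46e-06, edgeR). The first S070 library at 32°C gave the top 32°C value in both. Antioxidant enzymes moved less, with 4 of 11 rising, none falling and none past 1, among them the catalase cat2 (GRMZM2G090568) at 0.94. Without the first S070 and P040 libraries at 32°C 4 rose and 1 fell, and cat2 changed by 1.095.

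Nitrogen metabolism showed rises and falls within single enzyme families. Asparagine synthetase makes asparagine, a form in which nitrogen is stored and moved, and its gene asn3 (GRMZM2G053669, chromosome 1, 45118780 to 45122813) was at 0 to 20.9 CPM (median 0.763) at 32°C and 0.237 to 244 (median 11.6) at 38°C. The log2 change of 3.84 ± 0.83 (SE, adjusted p = 0.000926, edgeR) covered line changes from -0.81 in L023 to 7.75 in L012, and was 3.14 without L012 and 4.68 without L023. Among cytosolic glutamine synthetases, which bind ammonium, gln2 (GRMZM2G024104) rose by 2.10 from 0 to 3.39 CPM (median 0.872) to 0.417 to 16.1 (median 2.73). The more abundant gln4 (GRMZM5G872068) fell by 0.84 in all 8 lines, from 18.2 to 42.4 CPM (median 28) to 11 to 22.7 (median 15.1). Over the list of asparagine, glutamine and glutamate genes 7 of 14 rose and 3 fell, with a median of 0.47. These shares were 50% and 21.4%, against 15.5% and 16% of all genes. Without the first S070 and P040 libraries at 32°C 6 rose, and without the second P040 library 9.

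Other groups rose in part. Of 11 NAC factors, regulators that include stress and senescence genes, 6 rose and none fell, led in level by the stress-associated SNAC1 (GRMZM2G347043, 8.14 against 18.1 CPM in the median, log2 change 0.98). Of 20 aquaporins, membrane channels for water, 10 rose (50%, against 15.5% of all genes) and 2 fell (10%, against 16%). Without the second P040 library at 32°C 3 aquaporins fell. The plasma membrane channel gene pip2-5 (GRMZM2G178693) rose by 1.48, while TIP4-1 (GRMZM2G103945), a channel of the vacuole, fell by 1.96 from 14.4 to 135 CPM (median 49.8) to 1.61 to 52.2 (median 14.8). Of 5 LEA proteins and dehydrins, which protect drying cells, 3 rose and 1 fell, and without the first S070 and P040 libraries at 32°C 1 rose, and without the second P040 library 2 rose. The dehydrin gene dhn2 (GRMZM2G373522) went from 0.239 to 6.60 CPM (median 1.67) to 1.6 to 30.5 (median 10.8), and dehydrin 13 (GRMZM2G169372) in the opposite direction, from 15.2 to 116 (median 63.6) to 4.76 to 54.5 (median 13). The extracellular ribonuclease gene GRMZM2G158394 (chromosome 7, 176260711 to 176262411) was one of the most abundant genes that rose, at 4.65 to 216 CPM (median 87.4) at 32°C and 48.8 to 602 (median 384) at 38°C, a log2 change of 1.97 ± 0.43 (SE, adjusted p = 0.000933, edgeR).

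**Figure D4:**
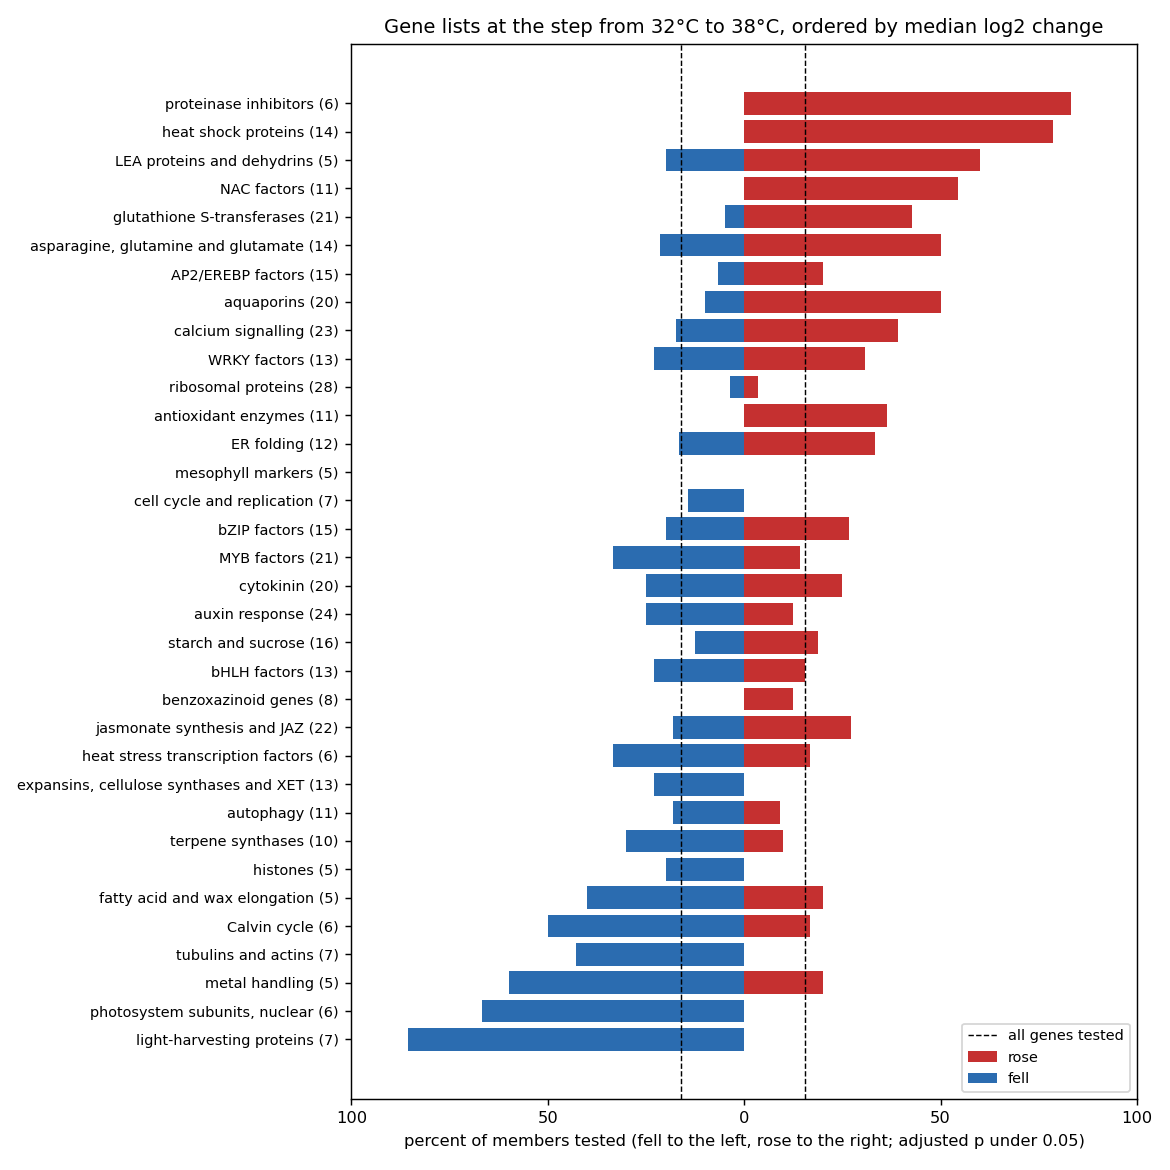
Share of members that rose (right) and fell (left) at an adjusted p under 0.05 for gene lists with at least 5 members tested, ordered by median log2 change, with the number tested in parentheses. Dashed lines mark the shares over all genes tested, 15.5% rising and 16% falling. Proteinase inhibitors and heat shock proteins lie far above the rising share, light-harvesting proteins far above the falling share. All of the proteinase inhibitors and several of the heat shock proteins were selected by the study as heat responsive on these libraries. Their shares are not independent evidence.

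Single genes among regulators and proteases fell in every line, while wider lists of these classes also held rises. Of 46 transcription regulation genes that the study selected as heat responsive, 22 rose (47.8%) and 1 fell (2.17%). Of 26 such protein degradation genes 14 rose and 6 fell. Of 15 bZIP factors 4 rose (26.7%) and 3 fell (20%), against 15.5% and 16% of all genes. Of 4 senescence-associated proteases 2 fell and none rose. The hemoglobin gene Hb2 (GRMZM2G168898, chromosome 6, 159342531 to 159343955) was at 1.78 to 14.6 CPM (median 6.72) at 32°C and 0.0538 to 3.53 (median 0.694) at 38°C, a log2 change of -2.95 ± 0.36 (SE, adjusted p = 1.00e-06, edgeR). The gene listed as vignain (GRMZM2G070011), a cysteine protease, was at 8.24 to 134 CPM (median 45.6) and 1.18 to 49.4 (median 5.13) and changed by -2.76. The transcription factor gene bZIP111 (GRMZM2G073427) was at 15.1 to 77.2 CPM (median 44.9) and 1.02 to 28.1 (median 5.2) and changed by -2.75. The cysteine protease gene ccp1 (GRMZM2G098298) fell by 1.36 and the gene LOL3 (GRMZM2G125314) by 3.13. Both genes of the short circadian clock list fell, gigantea1 (GRMZM2G107101) by 0.96, from 90.9 to 244 CPM (median 153) to 50.1 to 135 (median 74.3), which was lower in all 8 lines, and PRR59 (GRMZM2G135446) by 0.76, which was lower in 7 of 8.

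Of 16 genes of starch and sucrose metabolism 3 rose and 2 fell, with a median of -0.12, so with all libraries their shares lay near those of all genes. Without the first S070 and P040 libraries at 32°C 4 rose and 4 fell, and without the second P040 library 3 rose and 3 fell. Sucrose-phosphate synthase sps1 (GRMZM5G875238), which makes sucrose in leaves, was at 19.4 to 190 CPM (median 71.5) at 32°C and 19.4 to 87.1 (median 30.9) at 38°C (log2 change -1.02). The sucrose transporter gene sut1 (GRMZM2G034302), which loads sucrose into the phloem, was at 46.8 to 146 CPM (median 83.5) and 25.8 to 88.0 (median 43.4) (log2 change -0.998). In both genes the ranges overlapped and 7 of 8 lines were lower. Of 5 metal handling genes 3 fell (60%, against 16% of all genes) and 1 rose (20%, against 15.5%). Among the falls were the zinc transporter gene ZIP4 (GRMZM2G111300, log2 change -1.61) and nicotianamine synthase 3 (GRMZM2G439195, -1.67). The study selected 21 receptor kinases as heat responsive. Of them 11 fell (52.4%, against 16% of all genes) and 4 rose (19%, against 15.5%). Their median was -1.27, or -0.999 without the first S070 and P040 libraries at 32°C. The median line change was 0.24 in L017 and 0.08 in L023, and ran from -1.57 in P040 to -0.45 in L043 in the other lines. Because the study picked these kinases from the same data, their direction carries no separate weight. Of 28 ribosomal proteins 1 rose and 1 fell, and Actin1 (GRMZM2G126010), a common reference gene, was at 4.30 to 25.4 CPM (median 8.43) and 4.50 to 17 (median 9.69) (log2 change 0.16, adjusted p = 0.554, edgeR).

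Complete separation of all 31 libraries by heat level was rare. In 9 genes every 38°C library lay above every 32°C library (0.0504%), and in 15 every one lay below (0.0841%). Without the second P040 library at 32°C these numbers were 24 and 56. The translation factor gene eif5a (GRMZM2G113696) was at 93.2 to 150 CPM (median 114) at 32°C and 38.8 to 82.0 (median 68) at 38°C, a log2 change of -0.89 ± 0.09 (SE, adjusted p = 6.20e-08, edgeR). The gene SCL25B (GRMZM5G867185) was at 0.975 to 4.60 CPM (median 2.46) and 5.09 to 8.44 (median 6.36), a log2 change of 1.34 ± 0.16 (SE, adjusted p = 4.28e-07, edgeR). Unnamed genes with high levels also separated, GRMZM2G109418 from 315 to 657 CPM (median 471) to 114 to 251 (median 163) and GRMZM2G470035 from 126 to 264 (median 188) to 48.1 to 104 (median 65.9).

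The step was also described line by line, without a test. Among the 790 genes that rose beyond 1, the number with a higher mean at 38°C was between 613 in P040 and 775 in L012, and the median line change between 0.80 and 1.57 in these lines. Among the 628 genes that fell beyond 1, the number with a lower mean was between 503 in P040 and 609 in L023. As the genes were chosen on these libraries, the counts are a description. In all 8 lines 399 of the 790 were higher and 342 of the 628 lower, against 1243 (6.97%) and 1221 (6.84%) of all genes tested. P040 also had the smallest change in the light-harvesting proteins, with a median line change of 0.07 over the 7 genes, against -0.89 in S070 and -1.94 to -3.25 in the other lines. For heat shock proteins the medians ran from 0.66 in L043 to 2.60 in L017. The P040 and S070 values include the 32°C libraries that stood apart, and their part in these differences was not tested.

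**Figure D5:**
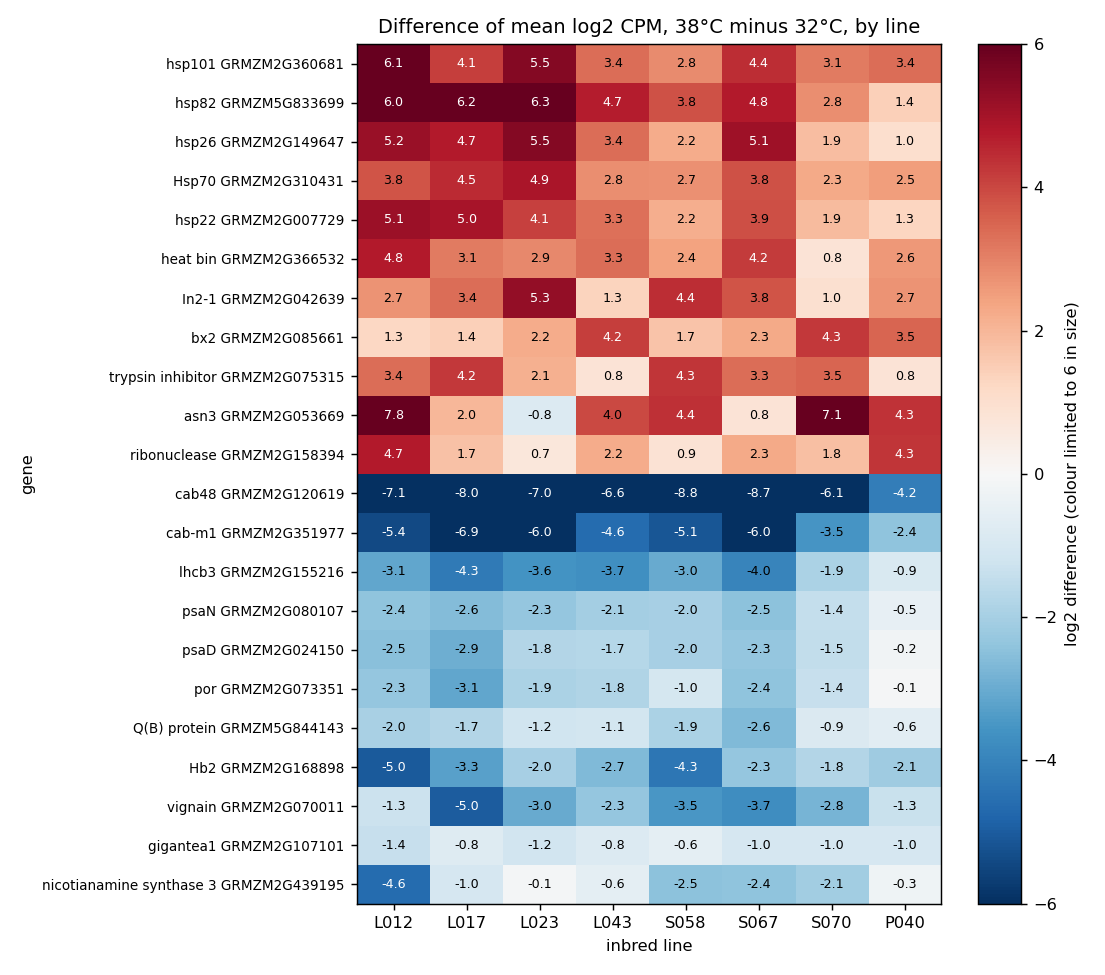
Difference of mean log2 CPM between 38°C and 32°C for 22 named genes (rows) in 8 inbred lines (columns), red for higher and blue for lower at 38°C, with the value in each cell. Heat shock proteins are higher and cab48, cab-m1 and lhcb3 lower in all lines, the changes of cab48 run from -8.79 in S058 to -4.15 in P040, and asn3 spans -0.81 in L023 to 7.75 in L012.

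Whether single genes stepped differently between lines was tested by the line by step interaction. At an adjusted p under 0.05, 29 genes passed (0.163%), and 2708 had an unadjusted p under 0.05. The count depended strongly on the libraries. It was 1159 without the first S070 and P040 libraries at 32°C, 860 without the P040 one alone, 75 without the S070 one alone, 58 without the second P040 library, 145 without the second S070 library at 32°C, and 0 in 11 of 39 settings that left out a library or line. DESeq2's likelihood ratio test called 846. Of the named genes, nicotianamine synthase 3 (GRMZM2G439195, chromosome 5, 15816565 to 15818557), which makes a metal-binding compound, passed at an adjusted p of 0.0487 (edgeR), with line changes from -4.63 in L012 to -0.10 in L023. The glutathione S-transferase gst31 (GRMZM2G475059) passed at 0.0494 (edgeR), with changes from -1.04 in L043 to 3.96 in S067. For hsp82 (GRMZM5G833699) the interaction had an adjusted p of 0.158, and of 0.0290 without the first S070 and P040 libraries at 32°C, with line changes from 1.43 in P040 to 6.25 in L023.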

How the data were processed

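RNA was depleted of ribosomal RNA and sequenced as single-end reads. The authors removed reads with adaptor or low base quality, aligned the rest with TopHat2 2.0.3 to B73 RefGen_v3, and deposited raw counts per nuclear protein-coding gene model with at least 2 CPM in at least 2 samples. How reads fitting several places were counted is not given in the sources used here.

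Here, genes with at least 2 CPM in at least 2 of the 31 libraries were scaled by TMM and tested with edgeR 4.0.16 (quasi-likelihood F test, line as covariate, R 4.3.3), with Benjamini-Hochberg adjustment over 17845 genes. The SE is the log2 change divided by the root of F. The interaction used 16 means of line and heat level. DESeq2 1.42.0 was an alternative, beside other scalings, filters, depths, covariates and libraries left out. Levels used a prior count of 2 on the log2 scale. Line changes are differences of mean log2 CPM and carry no test. Replicates were separate pools of plants. The p-values of the step measure the spread between them together with the differences between lines in their step. Those of the interaction measure the spread between replicates. The 25°C libraries were not used.

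The comparison and the gene lists were chosen with earlier results of these data known, and some lists draw on the study's own table of heat responsive genes. After seeing which symbols matched, 7 symbol patterns that caught unrelated genes were dropped, before test values were looked at. Named genes were the 12 largest rises and falls with the same sign in all 8 lines and at least 1 mean log2 CPM, the 5 rises and 5 falls with the largest smallest line change, the 5 smallest interaction p-values, the study's 14 common heat genes, Actin1, every gene above 1% of counts, and the 3 largest changes in each list at 0 or more mean log2 CPM. Other members of lists and genes without overlap were named after their values were seen. Symbols came from RefSeq's Zm-B73-REFERENCE-NAM-5.0 gene table, in which 11976 genes had 1 entry. Coordinates are those of the study's table on B73 RefGen_v3. Promoter motifs were not analysed here. In 94 genes the counts were identical to those of another gene.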

Additional observations from a re-analysis of the deposited data

Results flagged for a closer look

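In 7 named genes the step from 32°C to 38°C differed between lines by the line by step interaction test (edgeR, adjusted p under 0.05). GRMZM2G111903 had an adjusted p of 0.0392, with line changes from -3.39 in L012 to 0.19 in P040. GRMZM5G828630 (0.0392) ranged from -1.92 in L023 to 2.33 in P040, and GRMZM2G013612 (0.0392) from -1.77 in S070 to 2.34 in P040. GRMZM2G409627 (0.0392) and GRMZM2G307823 (0.0392) held identical counts in all 31 libraries, so they are 1 measurement, with line changes from -1.48 in S070 to 2.86 in L023. Nicotianamine synthase 3 (GRMZM2G439195) had 0.0487 and gst31 (GRMZM2G475059) 0.0494. Without the first S070 and P040 libraries at 32°C the adjusted p was 0.00265, 0.00233, 0.00167, 0.00532, 0.00532, 0.00788 and 0.0135 in the same order. The calls were easily lost. When 1 library or line was left out, in 39 settings, they were kept in 26, 25, 21, 23, 23, 12 and 8 settings in the same order, and in 11 of the 39 no gene at all passed. The first 5 genes were named for having the smallest interaction p-values, so those p-values are no separate support.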

How the results depend on the processing

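Of 176 named genes 4 changed sign under an alternative, and none of these 4 passed the test with all libraries or where the sign turned. GRMZM2G013612 (log2 change -0.02) was at 0.024 with the stricter filter, 0.018 with the replicate block, 0.089 without the first S070 and P040 libraries at 32°C, 0.086 with both, and from -0.389 to 0.287 when a library or line was left out. GRMZM2G062638 (0.131) ran from -0.026 to 0.292, GRMZM2G074401 (0.119) from -0.022 to 0.244 and GRMZM2G305046 (-0.124) from -0.274 to 0.085 in those settings. Against 790 rises and 628 falls beyond a log2 change of 1, requiring 2 CPM in 15 libraries gave 320 and 384. Fewer genes were tested there, and rises were then fewer than falls. At an adjusted p under 0.05 alone this filter gave 2223 rises and 2162 falls. Testing against a log2 change of 1 (glmTreat) gave 118 and 131, and a log2 change beyond 2 gave 158 and 67, both stricter by construction. Leaving out a library or line gave 667 to 945 rises and 561 to 671 falls. At an adjusted p under 0.05 alone, 2758 rises and 2864 falls became 1781 and 1852 with replicates summed per line, which leaves fewer samples by construction. With libraries thinned to the smallest total 1769 genes fell, so depth limits this count. Leaving out a library or line gave 2211 to 3044 rises and 2275 to 3031 falls.

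The 29 interaction calls became 846 with DESeq2, 15 with the stricter filter, 7 with thinned libraries and 1159 without the first S070 and P040 libraries at 32°C, and 0 to 860 when a library or line was left out. The cause was not tested. The share of counts in genes above 1% changed by -15.3 to -13.0 percentage points when a library or line was left out. Whether replicate numbers pair the samples is not clear. The correlation of same-numbered deviations was over 0.1 in 4 of 7 lines and ran from -0.115 in P040 to 0.266 in S070, so not every line reached 0.1 and the numbers were not treated as pairs. The replicate block gave 787 rises, 643 falls and 96 interaction calls, and without the first S070 and P040 libraries at 32°C 835 rises and 589 falls.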
